A study of Mus musculus with 49 samples.

Results

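The probe sets described here are those for the immunoglobulin heavy chain locus of the mouse (Igh). A probe set is a group of short oligonucleotides on an Affymetrix array that together report 1 transcript, and its level is given as a signal, a linear intensity in arbitrary units. A probe set was taken when every gene symbol that the platform annotation gives it belongs to the Igh locus, a rule that uses no measured value. It chose 38 of the 9977 probe sets on the U74Av2 array, and all 38 were tested, since no filter on low signals was applied. Of these, 35 carry a single symbol: 16 are annotated to Ighm, 7 to Ighg3, 2 to Igha, 1 to Ighd, 3 to Igh-VS107, 3 to Ighv14-2, and 1 each to Ighv1-54, Ighv3-6 and Ighv5-12. The other 3 carry several symbols: 92470_f_at is annotated to Ighv1-53, Ighv1-72 and Ighm, 97575_f_at to Ighg3, Igha and Ighm, and 99421_at to Ighv14-2, Ighg3, Igha and Ighm. An ID that ends in _f_at marks probes shared by a family of related sequences, _s_at and _g_at mark probes shared by a few transcripts, and a plain _at marks probes designed for 1 transcript. By this naming, 15 of the 38 are _f_at, 1 is _s_at, 2 are _g_at and 20 are plain _at. Probe sets differ in how strongly they hybridise, so no level of one is set against the level of another.

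A heavy chain is encoded by a variable exon joined from V, D and J segments, followed by constant region exons: μ (Ighm) for IgM, δ (Ighd) for IgD, and γ (such as Ighg3) and α (Igha) after class switching. In the bone marrow the μ chain first pairs with the surrogate light chain on pre-B cells and then with a κ or λ light chain on immature B cells, which show IgM on their surface. A polyclonal population uses many V segments, whereas cells with a rearranged heavy chain knock-in or transgene mostly use that single V. The B1-8 heavy chain uses a V of the J558 (Ighv1) family, and the antibody against hen egg lysozyme (HEL) uses a V of the 36-60 (Ighv3) family.

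The study followed immature B cells after loss of their surface receptor or of the tyrosine kinase signals that it needs, using cells from mice of mostly 4 to 8 weeks of age. Ctrl-Mhi, Cre-Mhi and Cre-Mlo cells (4 arrays each) carried 1 copy each of the B1-8 heavy chain allele (B1-8h in the labels, B1-8f in the methods) and the 3-83κ light chain. They were grown from bone marrow in interleukin 7 (IL-7) for 5 days, given interferon α/β at 1000 units/ml for 48 h without IL-7, and sorted on surface IgM as high (Mhi) or low (Mlo). The Cre groups also carried Mx-Cre, a recombinase that interferon induces and that is not particular to B cells, and the B1-8 variable exon is the part that it can delete. B6-M- cells (3 arrays) were IgM-negative B220+ cells from C57BL/6 mice grown in IL-7. FxD (pre-B, B220+CD43negIgMneg) and FxE (immature B, B220+IgM+IgDneg) cells came from Balb/c bone marrow, with 3 arrays each and RNA amplified in 2 rounds. FxE Ctrl (4 arrays) and FxE HA (6 arrays) were Bcl-2 transgenic immature B cells cultured for 24 or 48 h without or with herbimycin A, an inhibitor of tyrosine kinases. GFPneg and GFPpos cells (3 arrays each) came from HEL-Ig/Rag2-GFP mice, whose B cells carry an anti-HEL receptor as a conventional transgene and report Rag2 activity by GFP. They were grown in IL-7, held for 24 h without herbimycin A (GFPneg) or with 400 ng/ml of it (GFPpos), and sorted as IgM+ cells without or with GFP. On the older U74A array, HEL-Mhi (3 arrays) were IgM-high cells and HEL-Mlo (3 arrays) the IgMa-low fraction, both from HEL-Ig mice. Both were grown in IL-7, in HEL-Mlo for 5 days at 16 ng/ml by the labels, and both were IgD negative or low. Ctrl 48 h and HEL 48 h (3 arrays each) were HEL-Ig/Rag2-GFP cells kept for 48 h after IL-7 without HEL (sorted GFPneg) or with 1 µg/ml HEL (sorted GFP+), all IgMa high. Sorting on IgM uses the heavy chain protein itself, so in the comparisons of Mlo with Mhi cells, and of FxD with FxE cells, the gate and the transcripts measured here are not independent.

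Array medians lay between 345.9 and 544 on U74Av2, and log2 signals of arrays of 1 group correlated at 0.91 to 0.96 apart from HEL-Mlo at 0.96 to 0.98. HEL-Mlo arrays had medians of 21.6 to 26.2 against 512.3 to 596.4 for the other U74A arrays, so only ranks within an array are used for them. The methods give an independent cell sort for each array of the B1-8 groups and fewer sorts than arrays for some others, and no label names separate mice, so p-values here measure the spread between arrays, which may be partly technical. The summed signal of 12 myeloid markers was 37250 to 79545 in FxD, 68125 to 281928 in FxE, 29828 to 130636 in FxE Ctrl and 28452 to 136472 in FxE HA arrays, and 1885 to 4528 in the other U74Av2 groups, and its part in the results was not tested. The 5 erythroid markers measured summed to 56595 to 120170 in FxD and 114886 to 158394 in FxE arrays, against at most 9957 elsewhere on U74Av2. In bulk RNA of this kind, fewer cells of a type and less RNA per cell cannot be told apart.

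The μ constant region was read from 93583_s_at and 93584_at, both annotated to Ighm, although no probe sequences were available to check this. Their signals on all 46 arrays other than HEL-Mlo lay between 79149 and 235206 for 93583_s_at and between 61347 and 269485 for 93584_at. For 93583_s_at the 4 Ctrl-Mhi arrays read 142024, 128318, 127391 and 147869, the Cre-Mhi arrays 121708, 128896, 140481 and 123525, and the Cre-Mlo arrays 79149, 90252, 84068 and 84101. All 4 Cre-Mlo arrays lay below every Mhi array. The B6-M- arrays gave 110497, 88737 and 118483, overlapping the Cre-Mlo range at its top and lying below every Mhi array. Pre-B FxD arrays gave 231157, 128772 and 115958 and immature FxE arrays 190789, 123126 and 170318, and these groups overlapped. Over the 10 U74Av2 groups the highest mean was 2.10 times the lowest for 93583_s_at and 2.94 times for 93584_at, against a median of 10.4 times over the 38 probe sets. Thus these probe sets were among the steadiest heavy chain signals across development and culture. The other sets annotated to Ighm alone ranged from 2.37 times for 101346_at to 25.5 times for 100377_f_at. Whether signals this bright had reached the limit of the scanner was not tested.

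The δ constant region, which is joined to the same V exon by splicing of one long transcript, was reported by 101157_at (Ighd). Its signals were 4617, 7582, 6654 and 6530 in FxE Ctrl arrays, and in the 6 FxE HA arrays the lowest was 1355, the median 2234 and the highest 2859. FxD arrays read 1237, 1119.8 and 1001, and FxE arrays 1332, 2693 and 1287. Among the U74Av2 groups the cultured FxE Ctrl cells had the highest mean, 6346 ± 1245 (SD, n = 4), and FxD the lowest, 1119 ± 118 (SD, n = 3). The means of B6-M- (1281 ± 259.5), Cre-Mlo (1547 ± 186), GFPpos (1565 ± 127), FxE (1771 ± 799), Ctrl-Mhi (2025 ± 366), FxE HA (2118 ± 528), Cre-Mhi (2183 ± 701) and GFPneg (2229 ± 519) lay between them. The arrays of neighbours in that order overlapped, except that all FxE Ctrl arrays lay above the next group. On U74A, Ctrl 48 h arrays read 3795, 3755 and 2637 and HEL 48 h arrays 5708, 5814 and 5084, so the HEL-treated arrays were all higher.

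A few probe sets were far brighter in cells of 1 receptor than of the other. A probe set was called dominant in B1-8 cells when its Ctrl-Mhi mean was at least 4 times its GFPneg mean and at least 1000, and dominant in HEL-Ig cells when the reverse held. These values chose the sets, so they are given as a description with no test. Ctrl-Mhi and GFPneg cells also differed in interferon, hours of culture and sort, which cannot be told apart from the receptor here. The name dominant refers to this contrast only and not to polyclonal cells. Of the 38, 7 were dominant in B1-8 cells, 1 in HEL-Ig cells and 30 in neither. All 7 of the former were _f_at probe sets.

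The largest ratio, 346, was that of 92470_f_at, whose annotation holds Ighv1-53, Ighv1-72 and Ighm. Its Ctrl-Mhi arrays read 54538, 65018, 49418 and 66046, and its GFPneg arrays 306, 80 and 123. In polyclonal cells it read 702, 449 and 590.3 in FxD, 779, 457 and 356 in FxE, and 4374, 3238 and 2779 in B6-M- arrays. B6-M- cells from C57BL/6 mice thus lay above both Balb/c groups without overlap, and far below Ctrl-Mhi. Next came 97563_f_at (Ighv1-54), with 43918, 59226, 43672 and 59359 in Ctrl-Mhi and 349.6, 372 and 192 in GFPneg arrays, a ratio of 169. It read 12114, 8642 and 6793 in B6-M- and 1972, 1268 and 1738 in FxE arrays.

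The other 5 were 97574_f_at (Ighg3, ratio 28.7), 93927_f_at (Ighg3, 23.0), 101871_f_at (Ighm, 9.76), 100362_f_at (Ighm, 9.09) and 97577_f_at (Ighm, 5.19). They are annotated to constant region genes, but without probe sequences a match to V sequence could not be checked. Polyclonal B6-M- cells held them at high levels, with means from 999.5 for 97577_f_at to 6511 for 100362_f_at. The last member inside the threshold was 97577_f_at, with a Ctrl-Mhi mean of 1104. Just outside lay 4 further _f_at probe sets that passed the ratio but not the level, 101752_f_at (Ighg3, ratio 15.4), 97008_f_at (Ighg3, 10.9, Ctrl-Mhi mean 697), 97575_f_at (8.53) and 100377_f_at (Ighm, 5.96), and 1 plain probe set, 101749_at (Ighm, 4.97, Ctrl-Mhi mean 123).

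The HEL-Ig pattern was that of 96970_at (Ighv3-6), a V of the family that the anti-HEL heavy chain uses. It read 3392, 3688 and 3473 in GFPneg and 86.9, 384, 394 and 159.6 in Ctrl-Mhi arrays, a ratio of 13.7. HEL-Mhi arrays read 5225, 5515 and 4026 and Ctrl 48 h arrays 6146, 7221 and 4844. Polyclonal FxD and FxE arrays lay between 399 and 912, and B6-M- arrays at 4002, 1998 and 915, with the largest SD of any group (1566, n = 3). The nearest probe set outside the threshold was 96966_at (Ighm), with a ratio of 2.22 and signals of 1878, 2178 and 1713 in GFPneg and 1317, 421, 784 and 942 in Ctrl-Mhi arrays. In FxD, FxE, FxE Ctrl and FxE HA arrays 96966_at lay at 23.1 to 216.

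**Figure D1:**
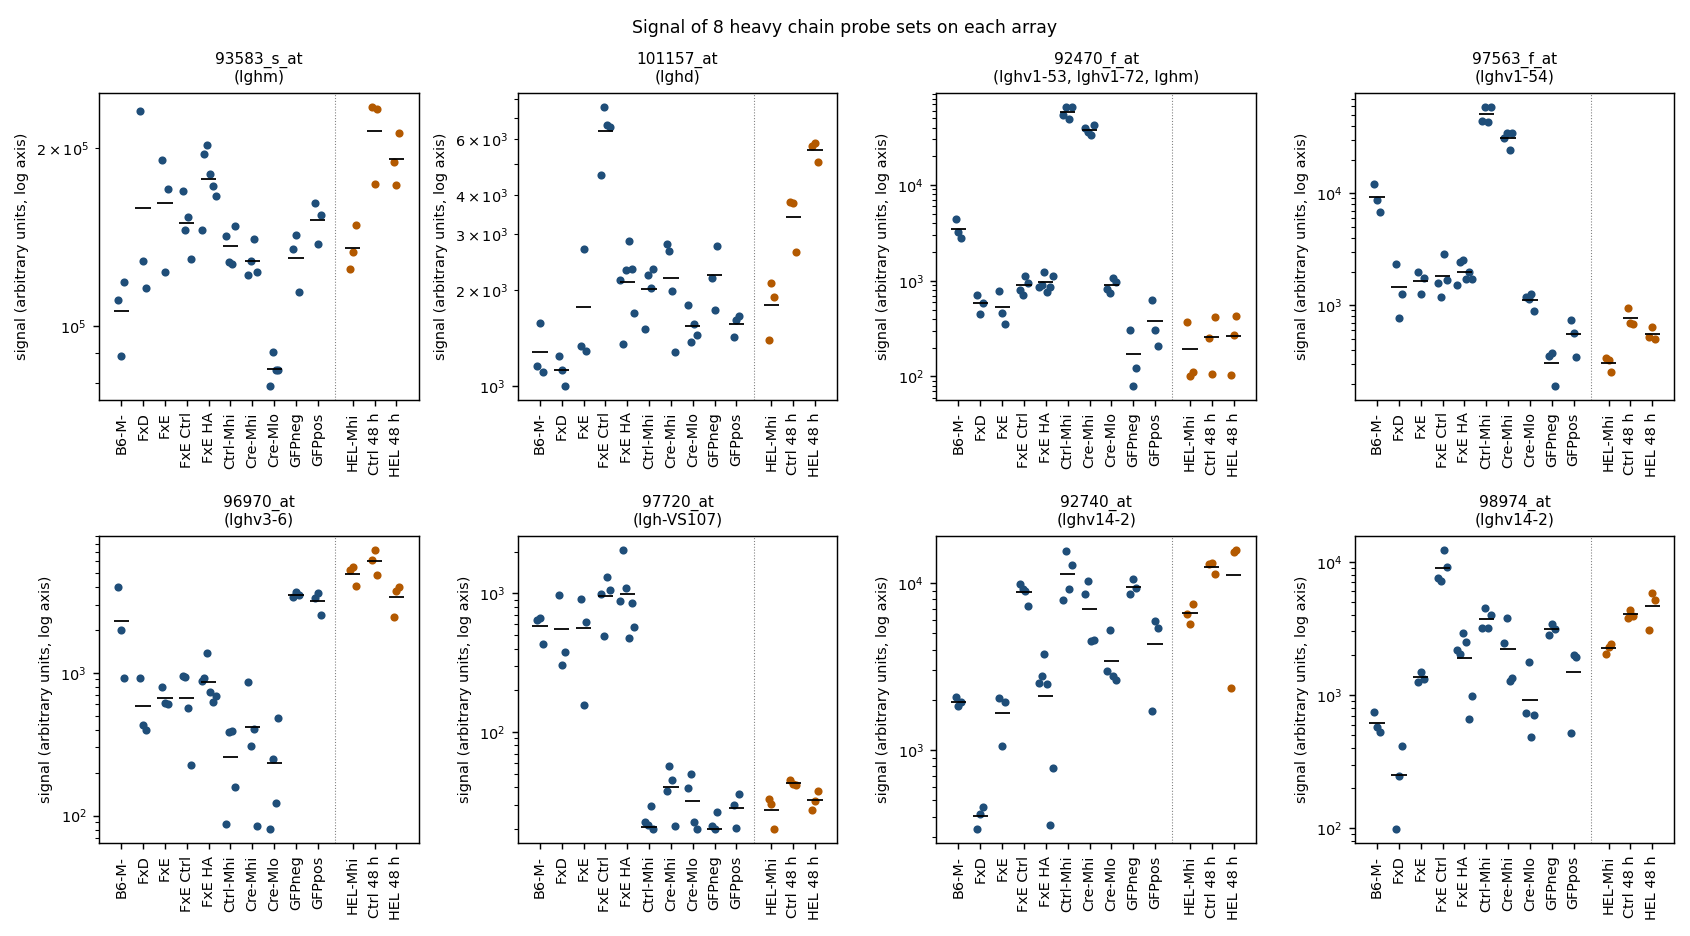
Signals of 8 heavy chain probe sets (log axis, arbitrary units, values under 20 drawn at 20) on each array, with U74Av2 groups in blue, U74A groups in orange to the right of the dotted line, and a black bar at each group mean. The μ probe set 93583_s_at is at least 79149 on every array shown, 92470_f_at and 97563_f_at are highest in Ctrl-Mhi and Cre-Mhi arrays and at 1262 or lower in Cre-Mlo arrays, and among the groups shown the means of 96970_at are highest in cells with the HEL-Ig transgene, although 1 B6-M- array reads 4002.

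Some V-annotated probe sets were higher in the polyclonal immature cells than in the knock-in cells. By the ratio of the FxE mean to the Ctrl-Mhi mean these included 97720_at (Igh-VS107, named for the V S107 family), for which no ratio is given because its Ctrl-Mhi mean of 20.5 lies at the floor of 20. The ratio was 2.62 for 96970_at, 2.19 for 98765_f_at (Ighv5-12) and 1.99 for 102152_f_at (Igh-VS107). The fifth in that order, 99421_at, was lower in FxE cells, with a ratio of 0.63. RNA amplification and erythroid signals also set FxE apart from Ctrl-Mhi cells, and their part was not tested. For 97720_at the arrays read 909, 157 and 624 in FxE, 981, 303 and 375 in FxD and 642, 660.5 and 434 in B6-M-. It read 22.6, 21.3, 29.3 and 8.8 in Ctrl-Mhi and 20.9, 11.6 and 26.7 in GFPneg arrays. Every array of the 3 polyclonal groups lay above every array of the Ctrl-Mhi, Cre-Mhi, Cre-Mlo, GFPneg and GFPpos groups, which reached at most 57.1. For 98765_f_at the FxE arrays read 3394, 2324 and 3136, the Ctrl-Mhi arrays 896, 1476, 1459 and 1558, and the GFPneg arrays 1061, 1145 and 1141, again without overlap. The third, 102152_f_at, read 3923, 2118 and 3249 in FxE, 1184, 1956, 1514 and 1578 in Ctrl-Mhi and 1861, 4146 and 3292 in GFPneg arrays, so that GFPneg overlapped both.

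The 3 probe sets annotated to Ighv14-2 alone followed neither the knock-in nor the transgene. Without probe sequences, whether they report this V segment could not be checked, so Ighv14-2 is here only the name in the annotation. For 92740_at the signals were 7967, 15516, 9216 and 12783 in Ctrl-Mhi, 8600, 10636 and 9395 in GFPneg, 9870, 9172, 8952 and 7294 in FxE Ctrl, 2043, 1052 and 1935 in FxE, and 337, 412 and 458 in FxD arrays. For 98974_at they were 3190, 4472, 3160 and 3987 in Ctrl-Mhi, 2816, 3398 and 3151 in GFPneg, 7611, 7128, 12263 and 9182 in FxE Ctrl, 1255, 1488 and 1324 in FxE, and 98.9, 248 and 412 in FxD arrays. On both sets the Ctrl-Mhi, GFPneg and FxE Ctrl arrays all lay above the FxE arrays, and the FxE arrays above the FxD arrays. RNA amplification and erythroid signals also set FxE and FxD apart from the other groups, and their part was not tested. Cre-Mhi arrays, also cultured and IgM high, spread from 1279 to 3757 on 98974_at and reached into the FxE range. The third, 92741_g_at, had means of 5860 ± 2497 (SD, n = 4) in Ctrl-Mhi, 1287 ± 566 (SD, n = 3) in FxE and 379 ± 115 (SD, n = 3) in FxD. Over the 10 U74Av2 group means, the heavy chain probe set with the pattern most like that of 98974_at was 101157_at (Ighd), with a Pearson r of 0.88. This value was picked as the highest over the other sets, and both 98974_at and 101157_at had their highest mean in FxE Ctrl cells. Its points are group means that share groups, so it carries no test. Where several symbols are listed, in 99421_at, the group means differed the least of all 38, by 1.68 times from FxE to FxE Ctrl.

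Of the probe sets annotated to γ3 and α alone, 93927_f_at and 97574_f_at are described with the B1-8-dominant sets. The other 3 _f_at sets were 97008_f_at and 101752_f_at (Ighg3) and 97009_f_at (Igha). They were highest in B6-M- cells, with means of 2847 ± 529, 1319 and 624, and lowest in GFPneg cells. Whether they report γ3 and α constant regions or V sequence could not be checked without probe sequences. The plain and _g_at sets behaved differently: 102721_at and 102722_g_at (Ighg3) were highest in FxE Ctrl cells, where they read 1312, 1784, 1478 and 1627, and 539, 527, 634 and 509.8. Their FxE means were 283 ± 70.1 and 89 ± 51.7 (SD, n = 3). The dim 102723_at (Ighg3) stayed at a mean of 59.9 or lower in every group. The α probe set 100583_at (Igha) read 614, 95.5 and 53.8 in FxE arrays and 1005, 886, 4504 and 6101 in FxE Ctrl arrays, the last 2 being those cultured for 48 h. Its 48 h FxE HA arrays, at 3964 and 3891, also lay above the 24 h ones, at 856 to 1505. FxE and FxE Ctrl cells differ in genotype, culture and erythroid signal, and RNA amplification in 2 rounds is stated only for FxD and FxE. They are therefore set side by side without a test.

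Annotation to Ighm did not define 1 pattern. Of the 16 Ighm-only probe sets, 8 had a mean under 500 in every U74Av2 group: 101276_at (highest group mean 70.3), 101870_at (62.8), 101749_at (123), 97568_at (133), 102159_at (188), 99885_at (300.0), 101346_at (369) and 99420_at (434). The highest means of 100377_f_at and 101745_f_at were 1518 in B6-M- and 809 in FxE HA cells. Across the 120 pairs that the 16 form, the correlation of the 10 group means ran from -0.81 to 0.95 with a median of 0.09, the highest being 93583_s_at with 93584_at. Of the 38 probe sets, 10 were highest in FxE Ctrl, 9 in B6-M-, 8 in Ctrl-Mhi, 6 in FxE HA, 2 in GFPneg, and 1 each in Cre-Mlo, FxE and GFPpos cells. Of the 38, 10 had a mean under 500 in every group, the 8 above with 102723_at and 98776_at (Igh-VS107).

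**Figure D2:**
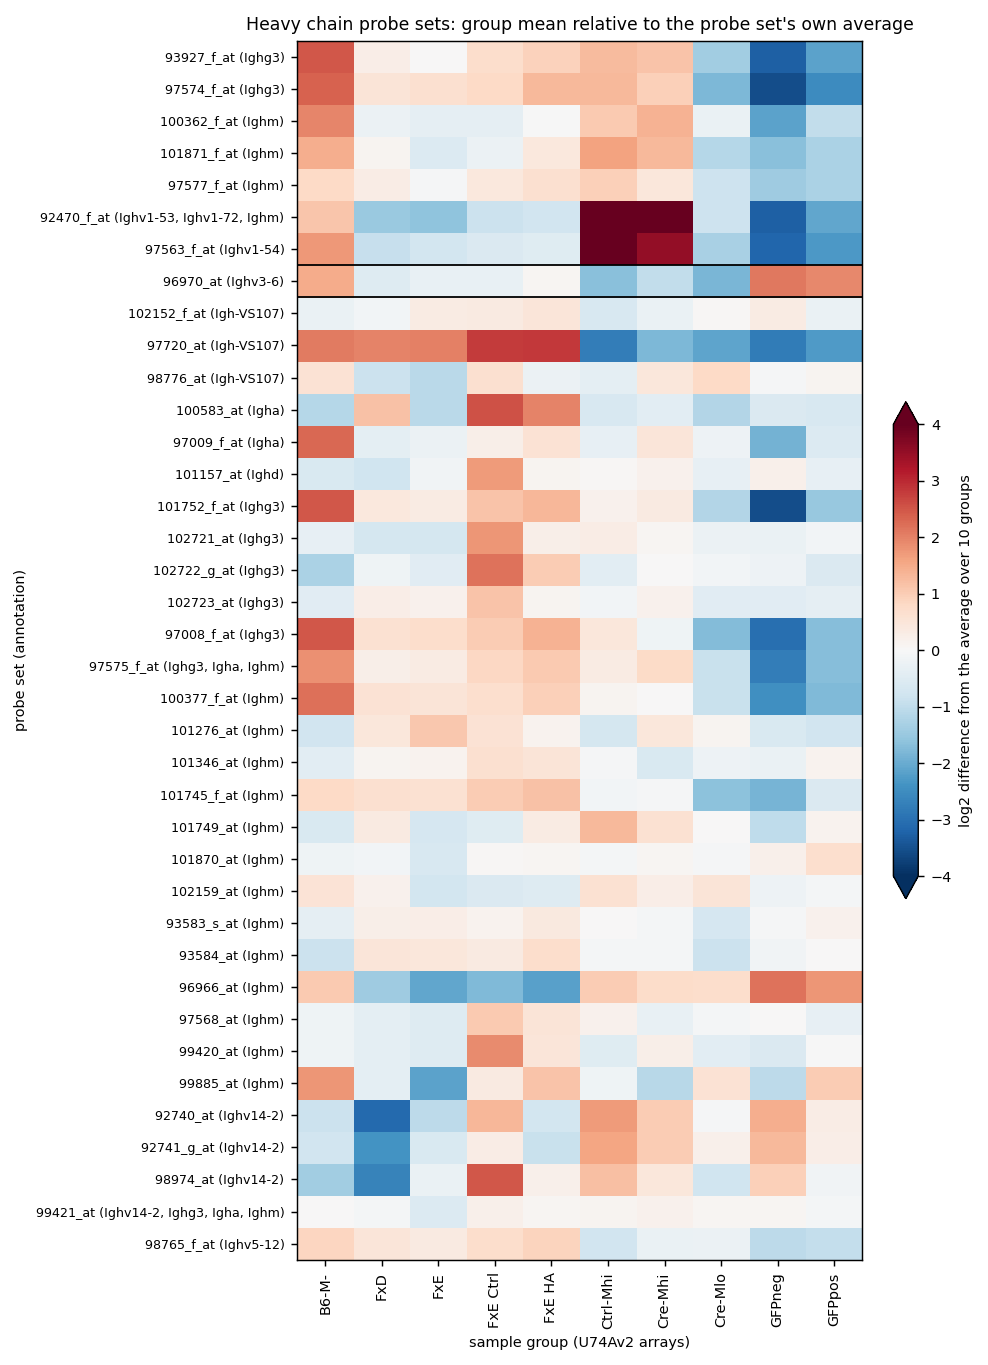
Heat map of the 38 heavy chain probe sets (rows) over 10 U74Av2 groups (columns), each cell showing the log2 group mean minus the probe set's own average over the groups, with colours capped at ±4. Black lines separate the 7 sets dominant in B1-8 cells, the 1 dominant in HEL-Ig cells and the remaining 30, and in the first block all 7 sets have their lowest mean in GFPneg cells.

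The question of the Mx-Cre comparison was what happens to immature B cells that lose surface IgM. By PCR, the paper reports that some Cre-Mhi cells had already deleted the knock-in heavy chain allele. Cre-Mhi is therefore not a fully intact baseline. In Cre-Mlo against Cre-Mhi cells, which share genotype and interferon and were not used to choose the dominant sets, the B1-8 variable signals fell the most. For 92470_f_at the Cre-Mlo arrays read 817, 745, 1076 and 975 and the Cre-Mhi arrays 39507, 36223, 33631 and 42974. For 97563_f_at they read 1180.2, 1146, 1262 and 898 against 30926, 34565, 24518 and 34444. The fall was 42.4-fold for the first (log2 difference -5.41 ± 0.16 (SE), adjusted p = 1.06e-08) and 27.7-fold for the second (-4.79 ± 0.17, adjusted p = 5.9e-08), by limma with Benjamini-Hochberg adjustment over all 9977 probe sets. The μ constant region had a smaller difference: the log2 difference was -0.61 ± 0.10 for 93583_s_at (adjusted p = 0.00578) and -0.75 ± 0.16 for 93584_at (adjusted p = 0.0202).

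A probe set was called when its adjusted p was under 0.05. In Cre-Mlo against Cre-Mhi cells 10 of 38 were called, all lower, where 6.08% of all probe sets were called in either direction with 3.14% higher and 2.95% lower. The 10 held all 7 sets dominant in B1-8 cells, both bright μ sets and 97008_f_at, which had missed the level threshold. After the V-annotated pair came 97574_f_at at -3.65 ± 0.81 (adjusted p = 0.0247), with Cre-Mlo arrays of 343, 390.0, 49 and 17 against Cre-Mhi arrays of 1665, 1101, 1503 and 1171. Then came 93927_f_at at -2.62 ± 0.29 (adjusted p = 0.000387), 101871_f_at at -2.50 ± 0.28 (0.000413), 97008_f_at at -1.70 ± 0.37 (0.0215), 100362_f_at at -1.67 ± 0.25 (0.00223) and 97577_f_at at -1.32 ± 0.21 (0.00399). For all 10 the Cre-Mlo arrays lay below the Cre-Mhi arrays. By probe type, 8 of 15 _f_at sets (median log2 difference -1.74) and 2 of the other 23 (median -0.30) were called lower. The median over the 38 was -0.68, against -0.03 over all probe sets. Without overlap, 11 sets were lower and 0 higher, against 6.43% and 7.38% of all.

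Same-numbered Cre-Mlo and Cre-Mhi arrays deviated together, and with the replicate number as a block 10 sets were again called, 8 of them shared with the fit above. In that fit 93584_at (adjusted p = 0.0574) and 97008_f_at (0.0665) were not called, and with the block in a fit of these 2 groups alone 4 sets were called: 92470_f_at, 97563_f_at, 101871_f_at and 93927_f_at. Neither μ set was called there (93583_s_at adjusted p = 0.0834, 93584_at 0.155), nor were 100362_f_at (0.0857), 97577_f_at (0.0851), 97574_f_at (0.127) or 97008_f_at (0.153). Quantile normalization gave 93583_s_at a difference of -0.33 (adjusted p = 0.146), and leaving out Cre-Mlo replicate 1, 3 or 4 took 93584_at to an adjusted p of 0.0527 to 0.0633. The calls of 97574_f_at and 97008_f_at were lost without Cre-Mhi replicate 1 or 3 or Cre-Mlo replicate 3, that of 97574_f_at also without Cre-Mhi replicate 2 and that of 97008_f_at also without Cre-Mlo replicate 1. The summed signal of 4 B lineage markers was 63733 to 73656 in Cre-Mlo and 110687 to 135425 in Cre-Mhi arrays. That of 6 plasma cell markers was 26494 to 33591 and 8850 to 13549. Irf4, which is among these 6, had means of 26366 and 7510, so these sums are mostly Irf4. The part of either marker sum in the result was not tested.

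Against Ctrl-Mhi, which lacks Mx-Cre, 13 of 38 sets were called in Cre-Mlo cells, all lower, where 8.33% of all probe sets were called, 4.23% higher and 4.1% lower. Without overlap, 3 sets were higher and 15 lower, against 8.43% and 8.21% of all. Ctrl-Mhi arrays had helped to choose the dominant sets, so their 7 differences here are a description only. The fall of 92470_f_at was 65.2-fold and that of 97563_f_at 45.8-fold. Of the 6 others, 97008_f_at lay at -2.34, 93583_s_at had a log2 difference of -0.69 ± 0.10 (adjusted p = 0.00211) and 93584_at of -0.79 ± 0.16 (adjusted p = 0.0114). The 3 Ighv14-2 sets fell as well against Ctrl-Mhi: the log2 difference was -2.16 ± 0.42 for 98974_at (adjusted p = 0.00959), -1.75 ± 0.34 for 92740_at (0.00989) and -1.27 ± 0.33 for 92741_g_at (0.035). Cre-Mlo arrays read 736, 1768, 488 and 712 for 98974_at, all below the Ctrl-Mhi arrays given above. For 92740_at they read 2958, 5276, 2790.0 and 2617, also without overlap. Against Cre-Mhi none of the 3 passed and their arrays overlapped: 98974_at stood at -1.28 (adjusted p = 0.121), 92741_g_at at -0.78 (0.236), and the adjusted p of 92740_at was 0.139. The call of 92741_g_at was lost in 6 alternatives, among them the fit without Ctrl-Mhi replicate 2 (adjusted p = 0.0944), Ctrl-Mhi replicate 4 (0.0907) or Cre-Mlo replicate 1, 3 or 4 (0.0804, 0.092 and 0.08). The δ set 101157_at read 1798, 1370.2, 1569 and 1450.1 in Cre-Mlo arrays and was not called in either comparison. Across the 38 the median was -0.52, against -0.04 over all probe sets.

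Cre-Mhi cells, which were exposed to the recombinase and still had surface IgM, differed from Ctrl-Mhi cells in 0 of 38 sets by limma, with 4 at an unadjusted p under 0.05, where 0.02% of all probe sets were called (0% higher, 0.02% lower). The 2 brightest V signals were nonetheless lower in every Cre-Mhi array: 92470_f_at by a log2 difference of -0.62 (adjusted p = 0.518) and 97563_f_at by -0.73 (adjusted p = 0.477). These were the 2 sets lower without overlap, and 1 set was higher, against 2.09% and 1.77% of all. Some Cre-Mhi cells had already deleted the knock-in allele, as given above, and the part of this in the lower signals was not tested. Both Cre-Mlo comparisons and this one share arrays with each other, so their values are given side by side and not compared.

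**Figure D3:**
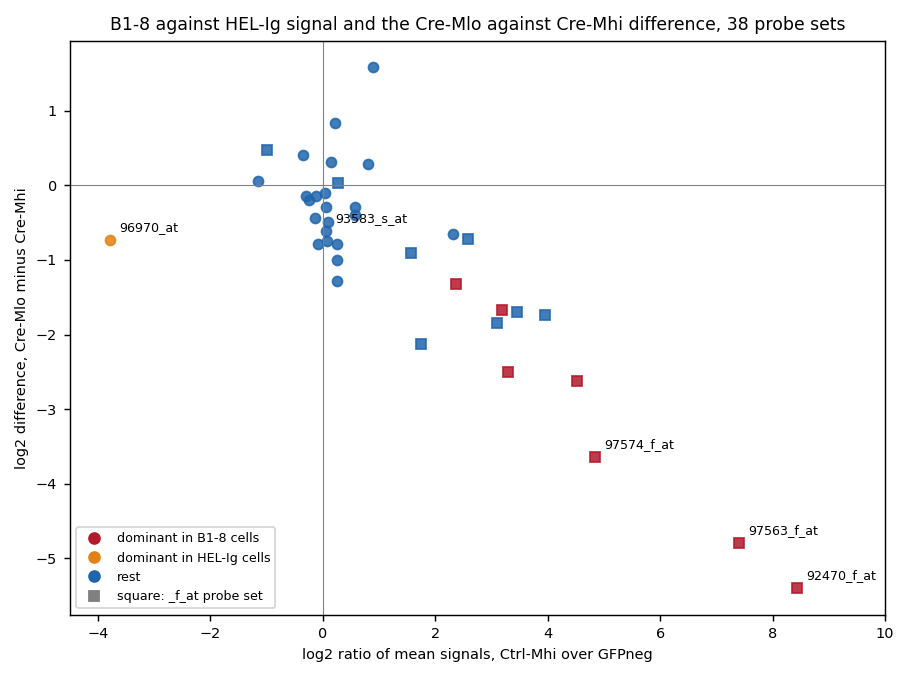
Each point is 1 of the 38 heavy chain probe sets, with the log2 ratio of the Ctrl-Mhi mean to the GFPneg mean on the x axis and the log2 difference of Cre-Mlo from Cre-Mhi cells on the y axis (squares, _f_at sets). Sets far to the right lie lowest, with 92470_f_at and 97563_f_at at the extreme.

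The 2 measures plotted there come from different arrays. Across the 38 probe sets, Pearson's r was -0.84 and Spearman's rho -0.70, and without 92470_f_at and 97563_f_at they were -0.70 and -0.65 over 36. The points share arrays and related probe sequences and are not independent replicates, so no p is given.

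In polyclonal B6-M- cells 92470_f_at, 97563_f_at and the 3 Ighv14-2 sets were lower than in Ctrl-Mhi cells. Higher were 97720_at, 96970_at, 98765_f_at and 9 sets annotated to constant region genes, whose match to V sequence could not be checked. Ctrl-Mhi differed also in strain, surface IgM and interferon, which cannot be told apart here. Of the 38, 12 were called higher and 7 lower, where 14.2% of all probe sets were called, 6.91% higher and 7.3% lower. Without overlap, 13 were higher and 8 lower, against 13.6% and 15.4% of all. Among them 97720_at (Igh-VS107) rose (adjusted p = 9.47e-05), and since its Ctrl-Mhi arrays, at 8.8 to 29.3, lie about the floor of 20, the size of the rise depends on the floor: 4.63 on the log2 scale with a floor of 20 and 2.51 with a floor of 100. Of the others, the highest were 96970_at (Ighv3-6) at 3.18 ± 0.70 (adjusted p = 0.0284), 97009_f_at (Igha) at 2.69 (0.014), 101752_f_at at 2.35 (0.0108), 99885_at at 2.21 (0.0497) and 100377_f_at at 2.12 (0.0144). Of the sets dominant in B1-8 cells, whose choice used Ctrl-Mhi arrays, 92470_f_at had a log2 difference of -4.10 ± 0.21 and 97563_f_at of -2.51, while 93927_f_at, 97574_f_at and 100362_f_at stood at 1.21, 1.08 and 0.92.

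The Ighv14-2 sets fell too: the log2 difference was -2.59 for 98974_at (adjusted p = 0.000636), -2.50 for 92740_at (0.00174) and -2.23 for 92741_g_at (0.00969). For 98974_at the B6-M- arrays read 741, 572 and 526, all below the lowest Ctrl-Mhi array. The μ set 93584_at fell by 0.77 ± 0.13 (adjusted p = 0.0118), with 73109, 69879 and 62975 against 119257, 108176, 122848 and 119244. The other, 93583_s_at, stood at -0.37 and was not called (adjusted p = 0.172), although its groups did not overlap. The dim 101749_at had a log2 difference of -1.91 (adjusted p = 0.00518), which was -0.31 with a floor of 100 (adjusted p = 0.237). Without B6-M- replicate 2, 12 sets were called, 5 of them higher. The call of 96970_at was lost without that array (adjusted p = 0.0935), without B6-M- replicate 1 (0.0809) or without Ctrl-Mhi replicate 4 (0.076), and that of 97009_f_at without B6-M- replicate 1 (0.0505) or 2 (0.0602). Also without B6-M- replicate 2, 100377_f_at (0.0608) and 93927_f_at (0.0624) were not called. By limma, 99885_at lost its call in every fit that left out an array except that without Ctrl-Mhi replicate 3, 97574_f_at except without Ctrl-Mhi replicate 2 or 4, and 100362_f_at except without Ctrl-Mhi replicate 2. All 38 together had a median of -0.08, against -0.13 over all probe sets. B lineage marker sums were 57739 to 78942 in B6-M- and 118288 to 145586 in Ctrl-Mhi arrays. Plasma cell marker sums, which include Irf4, were 20318 to 22330 and 10031 to 13772. The part of these sums in the differences was not tested.

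Pre-B against immature B cells of Balb/c bone marrow was the comparison of normal development. Of the 38, 0 were called higher and 1 lower in FxD against FxE, where 3% of all probe sets were called, 1.74% higher and 1.25% lower. Without overlap, 3 sets were higher and 4 lower, against 10.6% and 9.4% of all. The 1 was 92740_at (Ighv14-2), which fell by 2.01 ± 0.34 on the log2 scale (adjusted p = 0.0375), with all 3 FxD arrays below all 3 FxE arrays. This call was lost without FxE replicate 1 (adjusted p = 0.149) or 3 (0.169) and without FxD replicate 1 (0.123), 2 (0.112) or 3 (0.0937). The other Ighv14-2 sets also lay lower without passing, 98974_at at -2.64 (adjusted p = 0.0657) and 92741_g_at at -1.69 (0.147). The μ set 93583_s_at differed by -0.07 and the δ set by -0.58 (adjusted p = 0.567). The median over the 38 was 0.04, as over all probe sets. B lineage marker sums were 28563 to 31960 in FxD and 108260 to 113621 in FxE arrays. Plasma cell marker sums, which include Irf4, were 22985 to 28125 and 9605 to 13006. The part of these sums in the difference, like that of the myeloid and erythroid signals above, was not tested.

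Herbimycin A was used to ask what blocking tyrosine kinases does to cells that still have a receptor. In FxE HA against FxE Ctrl cells, fitted with the hours of culture, 5 of 38 sets were called, all lower, where 3.37% of all probe sets were called, 1.18% higher and 2.19% lower. These 5 were also the sets whose groups did not overlap in that direction, against 3.53% of all, and 0 were higher without overlap, against 2.32%. The Ighv14-2 sets among them had log2 differences of -2.68 ± 0.43 for 92740_at (adjusted p = 0.00962) and -2.52 ± 0.39 for 98974_at (0.00789). The δ set 101157_at gave -1.60 ± 0.25 (adjusted p = 0.0091), and the γ3 sets -1.60 ± 0.21 for 102721_at (0.00367) and -1.14 ± 0.17 for 102722_g_at (0.00621). In FxE HA arrays 98974_at had a lowest signal of 659.8, a median of 2111 and a highest of 2943, below the lowest FxE Ctrl array. For 92740_at the 2 FxE HA arrays of 48 h read 355 and 779 and the 4 of 24 h 2489 to 3753. For 102721_at the FxE HA arrays lay at 375 to 728, and for 102722_g_at at 204 to 291, also without overlap with FxE Ctrl. The μ sets did not pass, 93583_s_at at 0.23 (adjusted p = 0.597) and 93584_at at 0.31 (adjusted p = 0.447).

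Without the hours in the fit, 92740_at was not called (-2.44, adjusted p = 0.0724). With the 24 h arrays alone 2 sets were called, and 101157_at (-1.50, adjusted p = 0.196), 102721_at (-1.34, 0.116) and 102722_g_at (-1.20, 0.0855) were not. The median over the 38 was 0.10, against 0.07 over all probe sets. B lineage marker sums were 31650 to 52969 in FxE HA and 62249 to 85762 in FxE Ctrl arrays, T cell marker sums, mostly Cd2, were 36893 to 56432 and 21426 to 33362, and their part in the result was not tested.

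In HEL-Ig cells, where herbimycin A was followed by a sort on GFP, 0 of 38 sets were called in GFPpos against GFPneg cells by limma, with 5 at an unadjusted p under 0.05, where 2.59% of all probe sets were called, 1.37% higher and 1.21% lower. The lowest adjusted p was 0.128. The Ighv14-2 sets read lower on average, 92740_at with 1712, 5902 and 5424 against 8600, 10636 and 9395 (log2 difference -1.32, adjusted p = 0.224) and 98974_at with 521, 2006 and 1917 against 2816, 3398 and 3151 (-1.30, 0.264), in both without overlap. The δ set read 1422, 1609.5 and 1664 against 2194, 1729 and 2765 (-0.49 ± 0.21, adjusted p = 0.27). The transgene-family set 96970_at read 3314, 3586 and 2548 (-0.17, adjusted p = 0.643) and 93583_s_at 161516, 137864 and 153875 (0.22, adjusted p = 0.495). Without overlap, 5 sets were higher and 4 lower, against 14% and 15.1% of all. The 38 sets had a median of 0.20, against -0.02 over all probe sets. B lineage marker sums were 60183 to 75883 in GFPpos and 114535 to 123618 in GFPneg arrays. Plasma cell marker sums, which include Irf4, were 23672 to 29197 and 8385 to 9859. The part of these sums in the differences was not tested.

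Whether herbimycin A acted differently in the HEL-Ig and the polyclonal FxE cells was tested as the difference of the 2 effects. By limma 0 of 38 sets differed, where 0.692% of all probe sets did. The differences, HEL-Ig minus FxE, were 1.72 for 102721_at (adjusted p = 0.0565), 1.36 for 92740_at, 1.22 for 98974_at and 1.11 for 101157_at (adjusted p = 0.217). The Ighv14-2 and δ signals therefore passed in one population and not in the other without a difference between the populations that passed.

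Antigen engages the HEL-Ig receptor directly. In HEL 48 h against Ctrl 48 h cells, 0 of 38 sets were called by limma, with 3 at an unadjusted p under 0.05, where 0.23% of the 12588 probe sets of the U74A table were called, 0.143% higher and 0.0874% lower. The δ set was higher in all 3 HEL 48 h arrays, by 0.72 ± 0.23 on the log2 scale (adjusted p = 0.325, and 0.351 with the scan day as a block). The set 96970_at read 2434, 3724 and 4009 against 6146, 7221 and 4844 (-0.85 ± 0.29, adjusted p = 0.346), and 96966_at 434, 1386 and 1944 against 2509, 2680 and 2662 (-1.31, adjusted p = 0.444). Both were lower in every HEL 48 h array, while 93583_s_at differed by -0.15. For 92740_at HEL 48 h replicate 1 read 2367 and the others 15463 and 15794. Without overlap, 1 set was higher and 7 lower, against 8.45% and 12% of all. The median of the 38 was -0.17, against -0.11 over all probe sets.

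**Figure D4:**
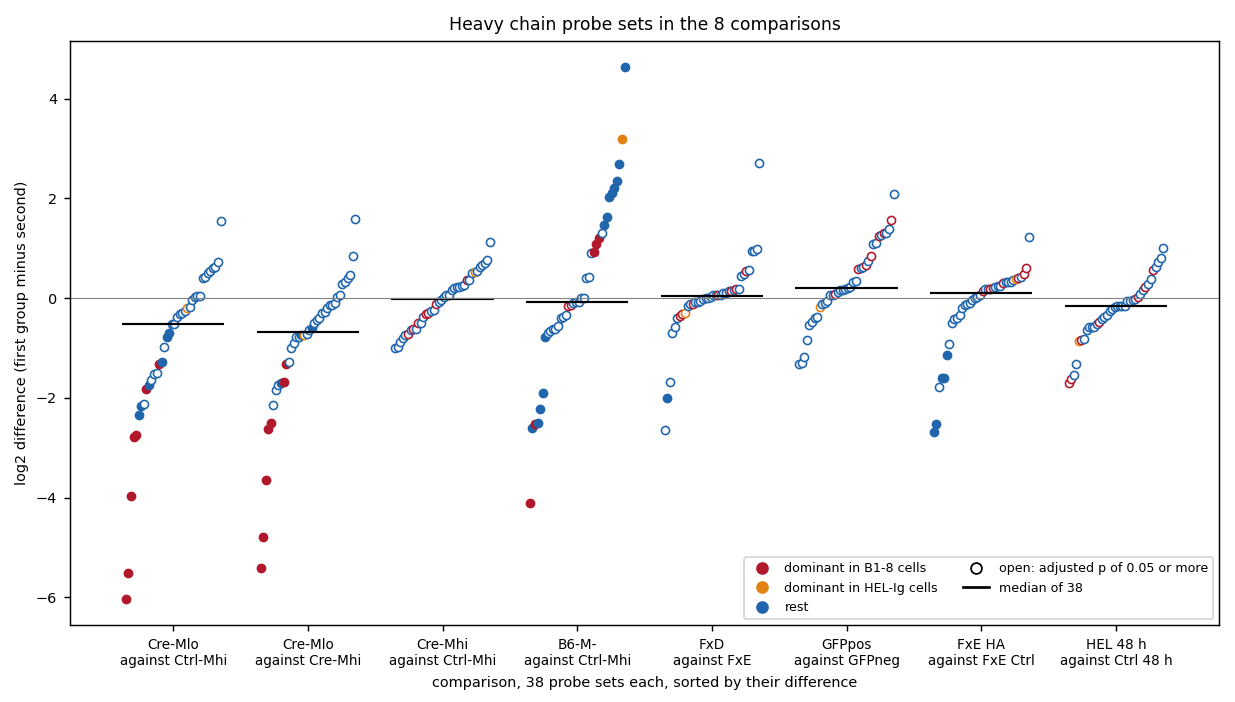
Log2 differences of the 38 heavy chain probe sets in 8 comparisons, 1 column of points each, with filled points for an adjusted p under 0.05 and a bar at the median of the 38. Called sets are all lower in Cre-Mlo cells, fall on both sides of 0 in B6-M- cells, and are absent in Cre-Mhi, GFPpos and HEL 48 h cells.

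In HEL-Mlo cells, only the rank of a probe set among the 9977 shared ones on the same array could be used. A percentile of 100 is the brightest. The μ sets stood at 99.7 or above on every HEL-Mlo and HEL-Mhi array. The transgene-family set 96970_at stood at 89.5, 92.7 and 84.9 in HEL-Mlo and 91.2, 92.0 and 88.2 in HEL-Mhi arrays, ranges that overlap. The Ighv14-2 sets ranked lower in HEL-Mlo: 92740_at at 70.2, 71.3 and 78.6 against 93.3, 92.3 and 94.2, and 98974_at at 49.1, 43.4 and 54.0 against 76.9, 79.5 and 80.8, without overlap and without a test. The δ set stood at 71.0, 73.4 and 64.3 against 69.7, 78.0 and 76.3.

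Genes that act on the heavy chain were followed as 4 lists. Of 8 measured genes of heavy chain recombination and class switching, 4 rose and 0 fell in Cre-Mlo against Cre-Mhi cells (6.08% of all probe sets called): Rag1 by 3.03 ± 0.23 (adjusted p = 1.99e-05) and Rag2 by 2.55 ± 0.26 (0.000255), which cut V, D and J segments, Dntt by 4.34 ± 0.49 (0.000402), which adds nucleotides at their joints, and Xrcc6, which joins ends, with a list median of 1.12 on the log2 scale against -0.03 over all. Higher and lower calls in this list were 4 and 1 in Cre-Mlo against Ctrl-Mhi (8.33% of all probe sets called), 5 and 1 in B6-M- (14.2%), 3 and 0 in FxD (3%), 4 and 1 in GFPpos (2.59%), 2 and 1 in FxE HA (3.37%) and 2 and 0 in HEL 48 h cells (0.23%), with Rag1 higher in each. GFPpos and HEL 48 h cells were sorted on a reporter of Rag2, so Rag2 there is part of the gate. Whether Rag1 there was independent of this gate was not tested. Of 8 measured partners of the heavy chain in the receptor, 3 rose and 1 fell in Cre-Mlo against Cre-Mhi cells: Vpreb1 (1.12 ± 0.18, adjusted p = 0.00405) and Igll1 of the surrogate light chain and Blnk (1.05 ± 0.15, 0.00185), an adaptor of receptor signalling, against Cd22 (-2.21 ± 0.17, 1.99e-05), an inhibitory co-receptor, with a list median of 0.28. The pair that make the surrogate light chain was also higher in FxD against FxE cells, Vpreb1 by 3.93 ± 0.35 (adjusted p = 0.0107) and Igll1 by 3.21 ± 0.33 (0.0154), where Cd22 fell.

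Of 13 transcription factors of the locus, Irf4 (1.85 ± 0.20, adjusted p = 0.000325) and Tcf12 (1.35 ± 0.18, 0.00101) rose, and Pou2f2 (-1.28 ± 0.21, 0.00455), which encodes an octamer-binding factor, and Spib fell in Cre-Mlo against Cre-Mhi cells, with a list median of 0.11. In FxE HA against FxE Ctrl cells, Spib (-2.14 ± 0.36, adjusted p = 0.0113) and Ets1 fell, and of the partners Btk (-1.06 ± 0.18, 0.0134), a tyrosine kinase of receptor signalling, and Cd22 fell. Of 10 measured genes of antibody folding and secretion, only Dnajb11 passed in Cre-Mlo against Cre-Mhi cells (-0.50 ± 0.12, adjusted p = 0.0402), Ell2 in B6-M- (-1.15 ± 0.14, 0.00317) and Xbp1 in GFPpos cells (-1.16 ± 0.18, 0.0428), all lower. No gene of the 4 lists passed in Cre-Mhi against Ctrl-Mhi cells, where 0.02% of all probe sets were called. The shares of all probe sets called were 6.08% in Cre-Mlo against Cre-Mhi and 3.37% in FxE HA against FxE Ctrl cells. They were 14.2% in B6-M- against Ctrl-Mhi and 2.59% in GFPpos against GFPneg cells.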

How the data were processed

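RNA of 14 groups was hybridised by the authors to Affymetrix U74Av2 arrays (37) or U74A arrays (12). The deposited values are linear signal intensity values from Microarray Suite 5.0, scaled by the authors to a target of 1500 after applying the U74A mask to U74Av2 arrays, and detection calls were not used here. The 2 tables were normalized separately and tested separately. Columns were assigned to groups from the labels. Signals under 20 were set to 20, log2 transformed and fitted with limma 3.58.1 (R 4.3.3; lmFit and eBayes) over all probe sets, with Benjamini-Hochberg adjustment. Ctrl-Mhi, Cre-Mhi and Cre-Mlo shared 1 fit, other comparisons used their own 2 groups, and FxE HA against FxE Ctrl included the hours of culture. The code was tested on simulated data. The number of arrays limits the precision. Named were the sets of a single constant region gene, the dominant sets, the largest called differences (at most 10 a comparison) and 5 V sets by FxE to Ctrl-Mhi ratio. Of the gene lists, at most 3 genes a list and comparison carry values. The members and lists were chosen with earlier results of these data known. No sequences are printed, since none were found for these members in the files used.

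Same-numbered arrays were taken as paired where every pair's deviations correlated above 0.1 over probe sets of mean signal 500 or more: this held for Cre-Mlo with Cre-Mhi (0.19 to 0.48) and for HEL 48 h with Ctrl 48 h (0.11 to 0.24). Alternatives were a floor of 100, log2(signal + 32), quantile normalization, a mean of at least 200, a replicate block, a fit of the 2 groups alone, leaving out each array, and the methods' t-test. No 2 arrays of a group held identical values.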

Additional observations from a re-analysis of the deposited data

Results flagged for a closer look

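In 8 of 125 checks over 25 named probe sets, 1 array stood apart from the rest of its group by Dixon's criterion, which chance alone meets in about 1 in 20. No explanation was tested. For the μ set 93584_at, Cre-Mhi replicate 3 read 156021 and the other 3 arrays 100288 to 106505. The same array read 2405.5 for 93927_f_at, where the others lay at 1694 to 1762. Cre-Mhi replicate 2 read 116.1 for the dim 99885_at against 11.9 to 23.5. Cre-Mlo replicate 2 read 118.3 for 101749_at against 19.8 to 36.5, and 5275.8 for the Ighv14-2 set 92740_at against 2617 to 2958. Ctrl-Mhi replicate 1 read 896.4 for 98765_f_at (Ighv5-12), below the others at 1459 to 1558. FxE HA replicate 3 read 205.6 for 101749_at against 7.1 to 69.9, and FxE HA replicate 2 read 6962.1 for 98765_f_at against 2942 to 4438.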

How the results depend on the processing

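No named difference turned its direction among called results. Of 1057 alternatives of 82 named differences, 958 kept their side of the threshold, 87 lost the call and 12 gained one. The methods' t-test with Benjamini-Hochberg adjustment called 8 sets in Cre-Mlo against Ctrl-Mhi, 6 in Cre-Mlo against Cre-Mhi, 4 in B6-M- against Ctrl-Mhi, 0 in FxD against FxE and 3 in FxE HA against FxE Ctrl; with the methods' 3 criteria it called 3 in B6-M- against Ctrl-Mhi. The replicate block gave 13 in Cre-Mlo against Ctrl-Mhi and 10 in Cre-Mlo against Cre-Mhi. It gave 3 in B6-M- against Ctrl-Mhi, 0 in FxD against FxE and 1 in FxE HA against FxE Ctrl. Among these comparisons the numbers pair the arrays only in Cre-Mlo against Cre-Mhi. The block changed no count in the other comparisons. The block in a fit of Cre-Mlo and Cre-Mhi alone gave 4, and the 24 h arrays alone gave 2 in FxE HA against FxE Ctrl, both chosen after seeing the data. In FxD against FxE a floor of 100 gave 0, log2(signal + 32) gave 2, quantile normalization gave 0 and a mean of at least 200 gave 2. Leaving out each array in turn gave 12 to 15 sets in Cre-Mlo against Ctrl-Mhi, 8 to 12 in Cre-Mlo against Cre-Mhi, 12 to 18 in B6-M- against Ctrl-Mhi, 0 to 1 in FxD against FxE, 5 to 5 in FxE HA against FxE Ctrl and 0 to 0 in the rest. The cause of these shifts was not tested. Signals near the floor carry no order.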

Other observations

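In the Bcl-2 transgenic cultures the dim Ighm set 99420_at read 65.7 and 88.6 in the 24 h and 925 and 656 in the 48 h FxE Ctrl arrays. In FxE HA arrays it read 79.6 to 139.5 at 24 h and 380.4 and 165 at 48 h. Like the α set 100583_at, it was higher on every 48 h array than on any 24 h array of the same group. The difference between the hours was noticed in the data and was not tested.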
